A study of Homo sapiens with 6 samples.

Results

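The small nucleolar RNAs (snoRNAs) and small Cajal body RNAs (scaRNAs) of a rhabdomyosarcoma cell line were read on expression arrays, with and without an induced microRNA. The rule for members used names and no values: every array row whose only gene symbol begins with SNORD, SNORA or SCARNA, with the row of the highest mean standing for a gene. This gave 192 of 18417 genes, on 198 rows: 115 C/D RNAs (SNORD), 61 H/ACA RNAs (SNORA) and 16 Cajal body RNAs (SCARNA). A further 76 rows named such an RNA beside other genes and were not used for members. All 192 were tested and none was filtered out.

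RD18 is an established human cell line from an embryonal rhabdomyosarcoma, a tumour of soft tissue that resembles early skeletal muscle. RNA from 6 cultures was measured, 1 array each. The derivative NpBI-22 (here miR-22 cells) was profiled as 2 biological replicates after doxycycline at 1 µg/ml for 6 days (induced) and as 2 replicates without it (untreated). The derivative NpBI-206AS, an additional control, gave 1 array with the same doxycycline exposure and 1 without. The labels do not say what its construct makes, nor whether either derivative is a clone. An induced against untreated difference thus holds doxycycline and the product of the construct together.

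A C/D RNA pairs with a target RNA and guides methylation of a ribose there, and an H/ACA RNA guides conversion of a uridine to pseudouridine; most targets lie in ribosomal RNA. Cajal body RNAs carry either fold and act on the small nuclear RNAs of the spliceosome. In human cells most of these RNAs are cut from introns of a host gene and trimmed, so that the proteins they bind protect the ends. A few, such as SNORD13, have a promoter of their own. The array gives the level of each RNA, not of the modification that it guides.

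The microRNA induced here and the starts of some host genes are shown as context for the construct and for members that share a host; no relation of these sequences to the values was tested. Sequences come from RefSeq, build GRCh38.p14, and none of the 192 members has a sequence in the tables used here. In miR-22 (chr17:1713914-1713935, minus strand) the capitals mark the seed, bases 2 to 8 from the 5′ end. In the host genes, 40 bases before and 30 bases after the annotated start are printed, and capitals mark a run of at least 5 C or T letters that begins within 5 bases of the start. Such runs of pyrimidines at the start of the transcript are typical of genes of the translation machinery and of many snoRNA hosts. The 7 hosts are noncoding genes picked after the values were seen: members in GAS5, SNHG1, SNHG5, SNHG16 and SNHG32 were lower in induced miR-22 cells, and those in SNHG19 and ZFAS1 were higher.
hsa-miR-22-3p: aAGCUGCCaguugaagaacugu
GAS5: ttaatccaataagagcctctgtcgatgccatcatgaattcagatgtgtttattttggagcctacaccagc
SNHG1: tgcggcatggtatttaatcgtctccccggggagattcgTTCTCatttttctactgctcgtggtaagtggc
SNHG5: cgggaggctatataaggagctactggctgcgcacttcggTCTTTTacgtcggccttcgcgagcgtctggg
SNHG16: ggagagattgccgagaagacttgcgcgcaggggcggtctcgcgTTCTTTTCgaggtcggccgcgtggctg
SNHG32: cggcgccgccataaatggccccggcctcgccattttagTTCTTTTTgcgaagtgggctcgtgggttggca
SNHG19: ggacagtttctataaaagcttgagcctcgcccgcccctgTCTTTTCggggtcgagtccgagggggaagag
ZFAS1: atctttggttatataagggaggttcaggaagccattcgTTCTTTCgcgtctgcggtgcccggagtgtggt

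The starts lie at chr1:173869016-173869085 (GAS5, minus strand), chr11:62855856-62855925 (SNHG1, minus), chr6:85678704-85678773 (SNHG5, minus), chr17:76557724-76557793 (SNHG16, plus), chr6:31834876-31834945 (SNHG32, plus), chr16:2155329-2155398 (SNHG19, minus) and chr20:49278602-49278671 (ZFAS1, plus). The run was searched on the strand of the gene only. It was present at 6 of the 7 printed starts, whether the hosted RNAs were lower or higher. GAS5 was the exception, with 1 annotated start in the table. Whether transcripts in these cells begin at any of the printed starts was not tested, so a missing run at GAS5 holds for the annotated start only. The run was found at 24.3% of 35116 starts in the table, a share per start. Counted per gene, it was found at 36.4% of the 77 host genes that the table holds, which cannot be set against the share per start. Among those hosts, 11 of 32 with a hosted median above 0 in the miR-22 comparison had it, and 17 of 45 with a median below 0.

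Values are log2 expression after RMA, a method that summarises the probes of a transcript after background correction and quantile normalization, so 1 unit is a 2-fold difference. The number of arrays limits the precision of every value. The host gene of miR-22, MIR22HG, read 10.02 and 10.01 on the induced miR-22 arrays, 6.27 and 6.72 on the untreated ones, and 6.41 and 6.32 in untreated and induced NpBI-206AS cells; signal from the construct cannot be told apart from the gene's own. The labels give each array a code whose meaning they do not state. Both induced miR-22 arrays have the prefix R715, untreated replicate 1 has R509, and untreated replicate 2 and both NpBI-206AS arrays have R587. Over the 192 members, arrays of a shared prefix correlated at r = 0.993 to 0.995, untreated replicate 1 with the R587 arrays at 0.98 to 0.984, and the induced miR-22 arrays with the other 4 at 0.955 to 0.968. In comparisons with the induced miR-22 arrays, induction and prefix cannot be told apart. Of 8 markers of muscle and rhabdomyosarcoma, 6 lay above the array median on all 6 arrays, and MYF5 lay below it. MYH3 lay below it on the induced miR-22 arrays (5.26 and 4.86) and above it on the untreated (8.02 and 7.69) and NpBI-206AS ones (6.40 and 5.95). MYH3 and DES were lower in induced than in untreated miR-22 cells (limma adjusted p = 0.015 and 0.038), and the other 6 were not called. The summed log2 level of the 8 was 61.4 to 63.2 on induced and 67.5 to 68.1 on untreated miR-22 arrays, and 64.3 to 64.5 on NpBI-206AS arrays. The part of this difference in the results below was not tested. Of 9 markers of blood, endothelial and epithelial cells, none lay above the median on all arrays. CD68, a blood marker, lay above it on the 4 arrays without induced miR-22 (5.90 to 6.37) and below it on the induced miR-22 ones (5.54 and 5.27).

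The members ran from the dim end of the arrays to well above their medians. Their mean log2 levels over the 6 arrays lay between 1.71 and 11.63, with a median of 6.04. Over all rows, single values ran from 1.1 to 14.09 and the array medians from 5.66 to 5.75. In 150 members the level stayed at or above the lower quartile of the array (3.92 to 4.01) on every array, and in 27 it lay below on all 6. Of these 27 dim members, 24 were C/D RNAs, 2 H/ACA and 1 Cajal body. The row with the highest level in each class was SCARNA17 (11.63) among Cajal body RNAs, SNORD116-15 (11.31) among C/D RNAs, and a member at 8.13, SNORA71C, among H/ACA RNAs; levels of different probe sets do not rank the RNAs by abundance. SCARNA17 read 11.76 and 11.63 in induced and 11.73 and 11.59 in untreated miR-22 cells, and 11.54 and 11.53 in NpBI-206AS cells, a log2 difference of 0.04 in miR-22 cells. A second row of SCARNA17, with a mean of 11.08, differed by 0.40 (adjusted p = 0.27), so its rows disagree on the size.

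Induced and untreated miR-22 cells were compared to find which of these RNAs differ once the construct is switched on. A Cajal body RNA, SCARNA10, and the C/D RNA SNORD13 were more than 4-fold higher in induced cells, and the C/D RNA SNORD52 was 2.69-fold lower. Of the 192 members, 8 rose and 7 fell at a limma adjusted p under 0.05, the threshold used for every call here. Over all 18417 genes 1.73% were called higher and 1.53% lower, 3.26% together. The median log2 change of the members was -0.03, beside 0.007 for all genes, and at an unadjusted p under 0.05, 31 members were higher and 42 lower. The share of all genes at an unadjusted p under 0.05 was not counted. Counts at that cut, here and for the classes, families and gene lists below, thus cannot show an excess. With each array centred on its median, 13 members were called higher and 4 lower. Leaving out any 1 of the 4 miR-22 arrays left no member called by limma, with 39 to 68 at an unadjusted p under 0.05; in all of these fits the 15 called members kept their direction.

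**Figure D1:**
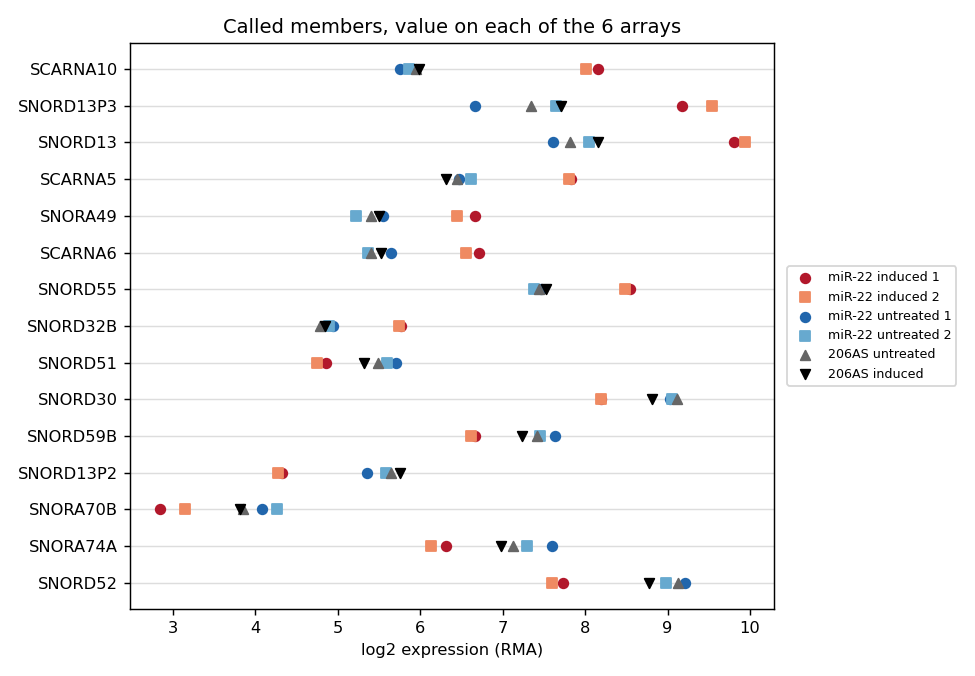
Log2 expression (horizontal axis) of the 15 called members, 1 row each, with 1 symbol per array. The induced miR-22 arrays (red and orange) lie outside the range of the other 4 in every row, from SCARNA10 (8.16 and 8.01 against 5.76 to 5.98) to SNORD52 (7.73 and 7.60 against 8.77 to 9.21). The rows were selected on the miR-22 arrays shown, so this separation is no separate support for the calls. Over all genes, both induced arrays lay above the other 4 in 22.1% and below them in 17.2%.

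Cajal body RNAs, 16 in all, gave 3 of the 8 rises, beside 1.73% of all genes called higher. SCARNA10, which guides modification of the U5 small nuclear RNA, read 8.16 and 8.01 on the induced miR-22 arrays and 5.76 and 5.86 on the untreated ones. In NpBI-206AS cells it read 5.95 without and 5.98 with doxycycline. The induced miR-22 arrays stood clear of the other 4, which lay between 5.76 and 5.98. The log2 change was 2.27 (SE 0.154, limma adjusted p = 0.015), a 4.84-fold rise.

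SCARNA5 and SCARNA6 lie in the same gene, ATG16L1, whose protein acts in autophagy. SCARNA5 read 7.83 and 7.80 in induced, 6.47 and 6.61 in untreated miR-22 cells, and 6.45 and 6.31 in untreated and induced NpBI-206AS cells (log2 change 1.28, SE 0.151, adjusted p = 0.025). SCARNA6 read 6.71 and 6.55, then 5.64 and 5.37, then 5.40 and 5.52 (log2 change 1.12, SE 0.174, adjusted p = 0.036). Both neighbours thus rose, and in neither did an induced miR-22 array overlap any other array. ATG16L1 itself read 8.09 and 8.05 in induced and 7.62 and 7.93 in untreated cells, a difference of 0.30 that was not called (adjusted p = 0.39).

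Other Cajal body RNAs had large differences that were not called in this comparison. SCARNA9L read 6.94 and 6.71 in induced but 4.94 and 5.80 in untreated cells (log2 difference 1.46, adjusted p = 0.064), and SCARNA7 10.03 and 10.06 against 8.77 and 9.22 (1.05, adjusted p = 0.055). SCARNA9, of which SCARNA9L is a copy, read 10.41 and 10.46 against 8.80 and 9.79 (1.14, adjusted p = 0.12). In each of these 3, untreated replicate 1 was the lowest of the 6 arrays. A dimmer row of SCARNA9, not used for the gene, differed by 2.31 (adjusted p = 0.038), so the rows of this gene disagree on the call. Over the class the median log2 change was 0.14, with 7 of 16 members above and 2 below 0 at an unadjusted p under 0.05; SCARNA14 (-0.56), SCARNA8 (-0.45) and SCARNA22 (-0.28) had the lowest values and were not called.

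**Figure D2:**
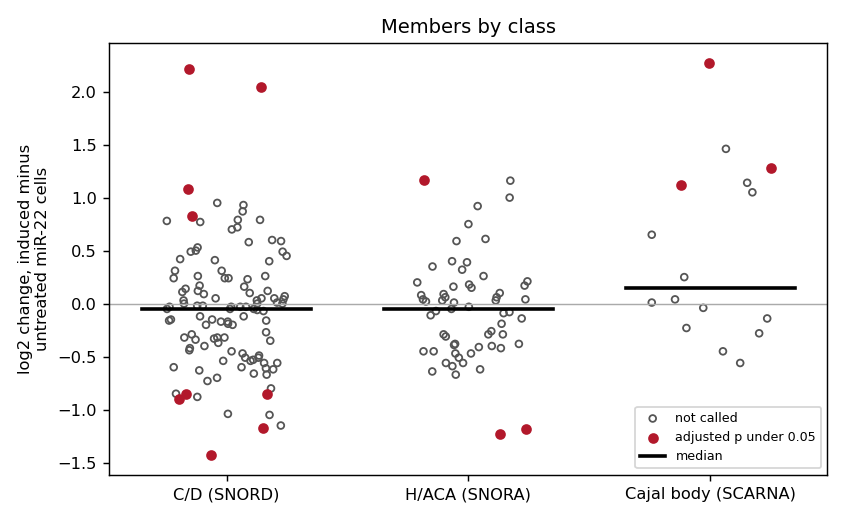
Log2 change between induced and untreated miR-22 cells (vertical axis) for each of the 192 members, by class, with filled red points for the 15 called members and a bar at the class median (-0.05, -0.05 and 0.14). The called Cajal body RNAs are all above 0, while called C/D and H/ACA RNAs lie on both sides.

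SNORD13 and SNORD13P3 had the largest rises among C/D RNAs. SNORD13, also known as U13, assists in making the RNA of the small ribosomal subunit and is transcribed from its own promoter. It read 9.80 and 9.94 in induced, 7.61 and 8.05 in untreated miR-22 cells, and 7.82 and 8.15 in untreated and induced NpBI-206AS cells. The other 4 arrays thus spread from 7.61 to 8.15, and the induced miR-22 arrays lay far above them (log2 change 2.04, SE 0.201, adjusted p = 0.019, 4.11-fold).

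SNORD13P3, an annotated pseudogene copy inside KIF9, read 9.18 and 9.54, then 6.66 and 7.65, then 7.34 and 7.71 (log2 change 2.21, SE 0.349, adjusted p = 0.038). Its untreated replicates stood 1.0 apart, the widest spread among the 15 called members. SNORD13P2, a copy inside FOXK1, changed the other way: 4.33 and 4.27 in induced, 5.36 and 5.58 in untreated miR-22 cells, and 5.64 and 5.76 in NpBI-206AS cells (log2 change -1.17, SE 0.159, adjusted p = 0.029). SNORD13P1 lay at 1.62 to 2.58 on the 6 arrays and was not called. Whether probes of these copies read the RNA of SNORD13 was not tested, so the values of the copies are uncertain.

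SNORD55 and SNORD32B were the other C/D RNAs that rose. SNORD55 read 8.54 and 8.48 in induced and 7.38 to 7.52 on the other 4 arrays (log2 change 1.08, SE 0.148, adjusted p = 0.029). SNORD32B read 5.77 and 5.74 against 4.79 to 4.94 (log2 change 0.83, SE 0.145, adjusted p = 0.047). Its near copy SNORD32A, in RPL13A, read 8.17 and 8.08 against 7.30 to 7.40, a difference of 0.77 just outside the threshold (adjusted p = 0.057).

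SNORD52, in the noncoding host SNHG32, had the largest fall of all members. It read 7.73 and 7.60 on the induced and 9.21 and 8.98 on the untreated miR-22 arrays, and 9.13 and 8.77 in untreated and induced NpBI-206AS cells. Every array without induced miR-22 was thus more than 1 log2 unit above both induced ones (log2 change -1.43, SE 0.164, adjusted p = 0.024).

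SNORD30, 1 of 2 measured members of SNHG1, read 8.19 on both induced arrays, 9.03 and 9.05 on the untreated ones, and 9.11 and 8.81 in NpBI-206AS cells (log2 change -0.85, SE 0.145, adjusted p = 0.045). SNORD59B, in the ATP synthase gene ATP5F1B, read 6.66 and 6.62 against 7.64 and 7.45, and 7.41 and 7.24 in NpBI-206AS cells (log2 change -0.90, SE 0.155, adjusted p = 0.045). Its neighbour SNORD59A in the same gene differed by -0.70 and was not called (adjusted p = 0.071). SNORD51, in the elongation factor gene EEF1B2, read 4.86 and 4.75 against 5.71 and 5.6, and 5.49 and 5.32 in NpBI-206AS cells (log2 change -0.85, SE 0.152, adjusted p = 0.049). These 3 falls were smaller than 2-fold, and each lay close to the threshold.

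Among 61 H/ACA RNAs, 1 rose and 2 fell, beside 1.73% and 1.53% of all genes. SNORA49, inside the chromatin remodeller gene EP400, read 6.67 and 6.45 in induced, 5.55 and 5.22 in untreated miR-22 cells, and 5.40 and 5.50 in NpBI-206AS cells (log2 change 1.17, SE 0.188, adjusted p = 0.039). SNORA74A read 6.31 and 6.13, then 7.60 and 7.30, then 7.13 and 6.98 (log2 change -1.23, SE 0.179, adjusted p = 0.033). SNORA70B read 2.84 and 3.15, then 4.08 and 4.26, then 3.85 and 3.81 (log2 change -1.18, SE 0.181, adjusted p = 0.036), but 4 of its 6 values lay below the lower quartile of their array. SNORA5C (1.16) and SNORA68 (1.0) had the next largest rises in value after SNORA49 and were not called (adjusted p = 0.066 for both), and SNORA70G (-0.67, adjusted p = 0.087) came next among the lower ones. The class median was -0.05, and at an unadjusted p under 0.05, 6 members were higher and 13 lower.

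Of the 115 C/D RNAs, 4 rose and 5 fell, beside 1.73% and 1.53% of all genes, with a median of -0.05. The 46 members of the SNORD113 to SNORD116 repeats had no call, and the remaining 69 had a median of -0.32, with 44 of them below 0. In this remainder, an unadjusted p under 0.05 was found for 14 higher and 23 lower. Leaving each replicate out in turn gave a class median between -0.09 and -0.04, and centring each array on its median turned it to 0.02.

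The imprinted repeats are tandem copies of C/D RNAs inside long noncoding hosts, and none of their members was called in this comparison. All 20 SNORD115 members, which lie in SNHG14 next to the SNORD116 repeat and are known from neurons, were below the lower quartile on all 6 arrays, with mean levels of 1.71 to 2.74 and no detection calls to tell signal from background. The 20 SNORD116 members of the same host ran from 2.73 to 11.31. Their median log2 change was 0.03 in miR-22 cells and their median difference 0.04 in NpBI-206AS cells. SNORD116-15, SNORD116-14 and SNORD116-21, the brightest, changed by 0.01, -0.03 and 0.24, none called.

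The extremes of the SNORD116 repeat ran both ways. SNORD116-24 read 8.41 and 8.48 in induced, 7.66 and 7.65 in untreated miR-22 cells, and 7.44 and 7.59 in NpBI-206AS cells (log2 difference 0.79, adjusted p = 0.052). SNORD116-28 read 5.08 and 5.49, then 5.84 and 6.81, then 6.32 and 6.53 (-1.04, adjusted p = 0.16). Neither was called, and near-identical copies in the repeat can share signal between rows.

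SNORD113 and SNORD114 RNAs come from the other imprinted cluster, on chromosome 14. The 6 measured members had a median log2 change of -0.18, from -1.15 for SNORD113-3 to 0.09 for SNORD113-4. SNORD113-3 read 4.38 and 5.0 in induced, 5.51 and 6.17 in untreated miR-22 cells, and 6.44 and 6.71 in untreated and induced NpBI-206AS cells; it was not called (adjusted p = 0.10). In NpBI-206AS cells all 6 were higher with doxycycline, by 0.16 to 0.49, with 1 array each.

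Members that share a host can be set side by side, since they come from the same primary transcript. The 7 measured members of GAS5, a noncoding gene that carries C/D RNAs in its introns, were all lower in induced miR-22 cells, by 0.37 (SNORD74) to 0.80 (SNORD75) on the log2 scale. Their median level was 9.32 and 9.26 on the induced and 9.77 and 9.84 on the untreated miR-22 arrays, and 9.88 and 9.35 in untreated and induced NpBI-206AS cells. The median of the members' own differences was -0.56 in miR-22 and -0.44 in NpBI-206AS cells, and all 7 members were lower in both lines under the deposited values and each of the 3 other scalings. No GAS5 member was called (SNORD75 had adjusted p = 0.099), and 4 of 7 had an unadjusted p under 0.05. SNORD75 read 9.32 and 9.26 in induced, 10.33 and 9.84 in untreated miR-22 cells, and 9.88 and 9.35 in NpBI-206AS cells. In 6 of the 7 members both induced miR-22 arrays lay below the other 4, the induced NpBI-206AS array included, beside 17.2% of all genes. SNORD74 was the exception, at 9.76 on the induced NpBI-206AS array against 10.22 and 10.04 on the induced miR-22 ones. Members of a shared host, read on the same arrays, are not separate observations.

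RPL13A, a gene of a ribosomal protein, carried 4 measured C/D RNAs, of which 3 had values above 0 in miR-22 cells. The log2 changes were 0.93 (SNORD33), 0.77 (SNORD32A), 0.49 (SNORD35A) and -0.07 (SNORD34), with none called and a median of 0.63, beside 0.03 in NpBI-206AS cells. Members of the same host thus ran from -0.07 to 0.93.

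TBRG4, RPL23A, RABGGTB, NCL, RPL3 and SNHG17, each with 3 measured members, gave no call. TBRG4, a gene of a mitochondrial RNA-binding protein, carries SNORA5C (1.16), SNORA5A (0.59) and SNORA5B (0.09). The 3 members of RPL23A had a median of -0.29, from -0.67 (SNORD4B) to -0.16 (SNORD42A), and those of RABGGTB -0.27, from -0.62 (SNORD45B) to -0.03 (SNORD45C). Medians in NCL (-0.05), RPL3 (-0.02) and SNHG17 (-0.14) were closer to 0, with members on both sides: SNORD82 (0.45) and SNORD20 (-0.05), SNORD43 (0.23) and SNORD83A (-0.34), SNORA71D (0.21) and SNORA71C (-0.64). Without induced replicate 1 the medians were -0.57 in RPL23A and -0.42 in SNHG17, without induced replicate 2 that of SNHG17 was 0.13, and without untreated replicate 1 that of RPL23A was -0.52.

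**Figure D3:**
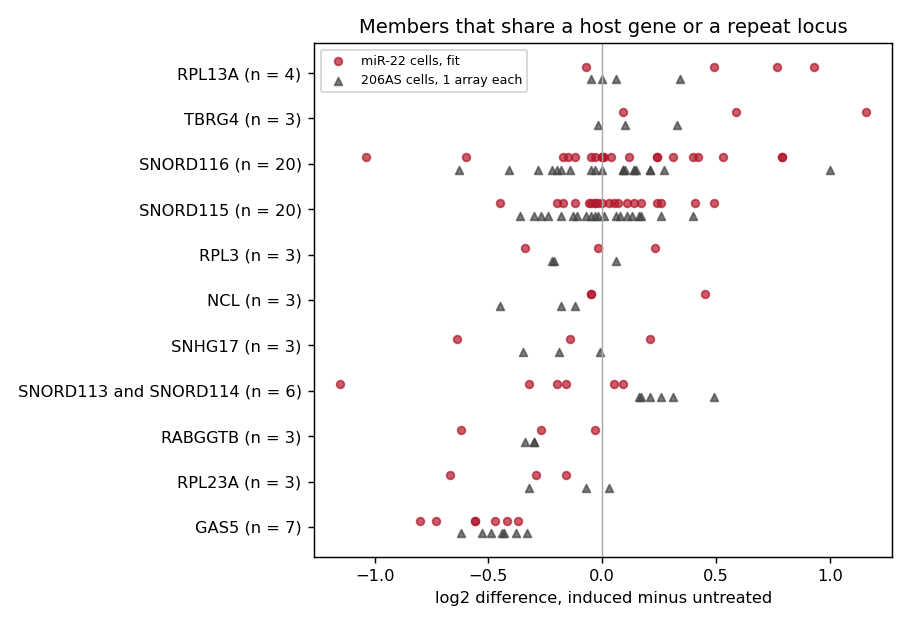
Log2 difference between induced and untreated cells (horizontal axis) for members that share a host gene or repeat locus, 1 row per locus, with red circles for miR-22 cells (2 arrays against 2) and grey triangles for NpBI-206AS cells (1 against 1). GAS5 members lie left of 0 in both lines, with medians of -0.56 and -0.44, and 3 of the 4 RPL13A members lie right of 0 in miR-22 cells.

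Grouping by the kind of host, a choice made after the values were seen, gave groups with different medians, described here without a test. Noncoding hosts (GAS5, ZFAS1 and the SNHG genes other than SNHG14) held 25 members in 14 genes, of which 18 were lower in induced miR-22 cells, with a median of -0.51. In NpBI-206AS cells 24 of the 25 were lower with doxycycline, with a median of -0.35 and a range from -0.62 to 0.11, and 18 were lower in both lines. SNHG14 and MEG8, the noncoding hosts of the imprinted repeats, were left out of this set; with their 46 members, of which the 6 in MEG8 were all higher in NpBI-206AS cells, the medians over 71 members were -0.03 in miR-22 and -0.10 in NpBI-206AS cells. SNORD28 of SNHG1 (-0.53 in miR-22 and -0.42 in NpBI-206AS cells), SNORD50A and SNORD50B of SNHG5 (-0.60 and -0.38; -0.61 and -0.44) and SNORD1A and SNORD1B of SNHG16 (-0.54 and -0.40; -0.63 and -0.39) had differences of like size in both lines. SNORD60 of SNHG19 (0.87 and -0.10), SNORD104 of SNHG25 (0.59 and -0.10) and SNORD12C of ZFAS1 (0.58 and -0.28) did not. Of hosts that encode ribosomal proteins, 16 genes with 27 members are described. RPSA, another such gene, was not in this set, and its SNORA6 (0.04) and SNORA62 (-0.11) were not called. In the set, 16 members were lower and 11 higher in induced miR-22 cells, with a median of -0.16 and none called. The split was 15 lower and 12 higher under each of the 3 other scalings. With 18 to 19 lower, the count for noncoding hosts held under those scalings. A fall in NpBI-206AS cells was not particular to noncoding hosts. Of the 27 members in ribosomal protein hosts, 21 were lower there with doxycycline, with a median of -0.14, and 14 were lower in both lines. The other hosts compared, RPSA among them, held 76 members. Of these, 47 were lower in NpBI-206AS cells, with a median of -0.12, and 32 were lower in both lines. Of the members in noncoding hosts, 2 were called lower (SNORD30 and SNORD52) and none higher, beside 1.53% and 1.73% of all genes.

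In NpBI-206AS cells, the control line, doxycycline could be followed only without a test, as each condition had 1 array. Of 192 members, 123 were lower and 69 higher with doxycycline, and the median difference was -0.11, beside 0.003 over all genes. Only 1 member reached a 2-fold difference, beside 0.109% of all genes: SNORD116-16 read 2.51 without and 3.52 with doxycycline, both below the lower quartile of the array, and no member reached it under the 3 other scalings. The 15 members called in miR-22 cells differed by -0.36 (SNORD52) to 0.38 (SNORD13P3) in NpBI-206AS cells, and 13 of them had the same sign in both lines. Over all 192 members, 103 were lower and 89 higher in induced miR-22 cells, and 76 were lower in both lines. A shared fall was thus not particular to the called members, and some of these were near 0 in NpBI-206AS cells. SCARNA10 differed by 0.03, SCARNA5 by -0.14 and SNORD55 by 0.08 there. Over the 192 members the differences in the lines, which come from separate arrays, correlated at r = 0.278, with all members read on the same 6 arrays. Between untreated cells of the lines (NpBI-206AS minus miR-22) the members' median difference was 0.05, from -0.64 to 0.73, and no member reached 2-fold.

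**Figure D4:**
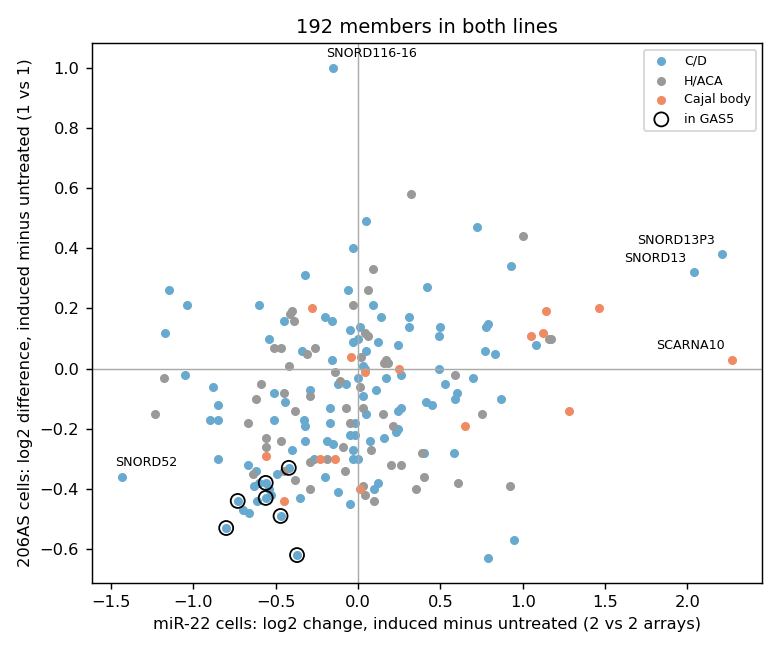
Log2 difference between induced and untreated cells for each of the 192 members, in miR-22 cells (horizontal axis, 2 arrays against 2) and in NpBI-206AS cells (vertical axis, 1 against 1), coloured by class, with GAS5 members ringed. SCARNA10 lies at 2.27 and 0.03, SNORD13 at 2.04 and 0.32, SNORD52 at -1.43 and -0.36, and the 7 ringed points lie below 0 on both axes.

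The responses of the lines were then set against each other in the same model. No member was called for a difference between the responses (limma, lowest adjusted p = 0.20, for SCARNA10), nor was any of the 18417 genes (0.0%). At an unadjusted p under 0.05, 24 members had the higher and 8 the lower response in miR-22 cells. A difference between the lines is thus not established for any member, with 1 NpBI-206AS array per condition.

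Setting the 2 induced miR-22 arrays against all 4 others, which reuses the arrays of the first comparison, gave 25 members higher and 25 lower (limma adjusted p under 0.05), beside 7.78% and 6.31% of all genes. The 50 included all 15 calls of the first comparison. By class, 14 C/D, 5 H/ACA and 6 Cajal body RNAs were higher, and 18, 7 and 0 lower. Both induced arrays lay above all others in 45 members and below them in 51, beside 22.1% and 17.2% of all genes. The Cajal body RNAs that this comparison added were SCARNA9L (log2 difference 1.30, adjusted p = 0.015), SCARNA7 (0.99, 0.0064) and SCARNA1 (0.54, 0.039). Without induced replicate 1 or 2 the count fell to 12 or 16, without untreated replicate 2 to 28, and without untreated replicate 1 it rose to 74 (32 higher and 42 lower); with each array centred on its median it was 27 higher and 18 lower.

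Among C/D RNAs added there, SNORD113-3 had the largest fall (-1.52, adjusted p = 0.023), ahead of SNORD116-28 (-1.09, 0.032) and of SNORD14E (-0.93, 0.021) and SNORD14C (-0.89, 0.0052), both in the chaperone gene HSPA8. SNORD95 and SNORD96A, both in RACK1, a gene of a ribosomal protein, fell by 0.74 and 0.48 on the log2 scale (adjusted p = 0.027 and 0.036). SNORD116-24 and SNORD60 were higher by 0.86 each (adjusted p = 0.0044 and 0.0045), and SNORD57, in the gene of the C/D core protein NOP56, by 0.68 (adjusted p = 0.013). From GAS5, SNORD79 was called (-0.87, adjusted p = 0.041). Among H/ACA RNAs, SNORA5C (1.08, adjusted p = 0.01) and SNORA68 (0.99, 0.013) had the largest added rises and SNORA23 (-0.72, 0.049) the largest added fall.

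Host genes are read by rows that carry their symbol, so a hosted RNA can be set beside a row named for its host. As for every gene, the row of highest mean was used. Whether that row reads the transcript that carries the RNA, or a copy of the host elsewhere, was not checked. A single containing gene was found for 178 members, in 93 genes, of which 69 were measured and carried 91 members. Of these hosts 1 was called higher and 1 lower, beside 1.73% and 1.53% of all genes, and their median log2 change was -0.02, from -1.08 to 1.02. EEF1B2 rose (8.34 and 8.15 in induced, 7.38 and 7.24 in untreated miR-22 cells, 7.11 and 7.14 in NpBI-206AS cells; log2 change 0.93, SE 0.160, adjusted p = 0.045), while its SNORD51 fell by 0.85 and its SNORA41 differed by 0.39 without a call (adjusted p = 0.49). TOMM20, a receptor of protein import into mitochondria, fell (7.36 and 7.53 against 8.29 and 8.41; log2 change -0.90, SE 0.157, adjusted p = 0.046), while its SNORA14B differed by -0.29. With each array centred on its median, 2 hosts were called higher and none lower, and leaving out any miR-22 array left none called.

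No host of the members of largest change was called. NCAPD2, a condensin subunit that carries SCARNA10, read 10.62 and 10.46 in induced and 10.81 and 10.90 in untreated cells (-0.31, adjusted p = 0.32). KIF9, a kinesin gene that holds SNORD13P3, differed by -0.24, and EP400, host of SNORA49, by -0.66; neither was called. In 34 of the 69 hosts the sign was opposite to that of the hosted median, and over the 69 the correlation was r = 0.011, all read on the same arrays. Of 9 called members with a measured host, 4 had the opposite sign from it. GAS5, SNHG1, SNHG32, RPL13A and SNHG14 had no row with a single symbol, so their hosted RNAs could not be set against them.

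**Figure D5:**
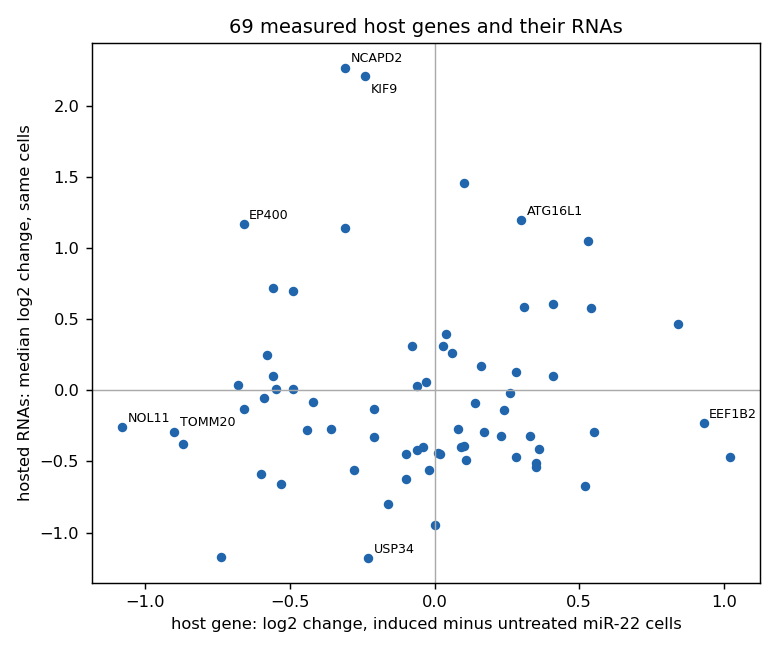
Log2 change between induced and untreated miR-22 cells of 69 measured host genes (horizontal axis) and the median log2 change of the members each carries (vertical axis). NCAPD2 and KIF9 lie left of 0 at -0.31 and -0.24 while their RNAs are at 2.27 and 2.21, and EEF1B2 lies at 0.93 with a hosted median of -0.23.

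The proteins of these particles were read from a list of 44 genes, of which 40 were measured; 1 rose and 2 fell, beside 1.73% and 1.53% of all genes, with a median of -0.02. NOP10, a core protein of H/ACA particles, read 9.74 and 9.79 in induced, 8.37 and 8.86 in untreated miR-22 cells, and 8.89 on both NpBI-206AS arrays (log2 change 1.15, SE 0.206, adjusted p = 0.049). NOLC1, a phosphoprotein that shuttles between nucleolus and Cajal bodies, read 8.89 and 8.77, then 10.21 and 10.40, then 10.43 and 10.16 (log2 change -1.48, SE 0.159, adjusted p = 0.021). GEMIN2, of the complex that loads proteins onto spliceosomal RNAs, read 5.87 and 5.79, then 6.88 and 7.20, then 7.32 and 6.86 (log2 change -1.21, SE 0.174, adjusted p = 0.032).

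By role, the C/D core proteins had 2 measured genes, FBL (0.34), the methyltransferase, and NOP58 (-1.0), with neither called. Of the 6 H/ACA core and biogenesis genes NOP10 was called, and of the 14 genes of Cajal bodies and RNA export NOLC1 and GEMIN2 were. None of the 8 assembly factors and none of the 10 trimming and decay genes passed limma's threshold, with medians of 0.03 and 0.07. Over the 40, 14 had an unadjusted p under 0.05. When 1 miR-22 array was left out, its group had a single array. The residual spread then came only from the miR-22 group that kept both replicates, so counts of calls cannot be set against those of the full fit.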

How the data were processed

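The authors deposited log2 expression values; the submitters' processing notes name RMA and Partek without versions, and build and library file are not named there. After RMA a shift common to all transcripts would not be seen. Total RNA from 6 cultures was read on 1 array each, and groups came from sample titles.

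Rows were named through the platform annotation, updated by gene ID (GRCh38.p14; 19429 of 19460 single-symbol rows matched); 1754 rows had several symbols and 12083 none. A gene took its row of highest mean. The choice of these RNAs as members, the lists and the tests were made with earlier results of these data known. Membership itself reads names only, while the row that stands for a gene was picked by its mean value.

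Differences were tested with limma 3.58.1 (R 4.3.3), two-sided, and p-values were adjusted by Benjamini-Hochberg across the 33297 rows, with calls at 0.05. A model with 1 mean per group over the 6 arrays (2 residual and 3.62 prior degrees of freedom) gave the response of miR-22 cells and its difference from that of NpBI-206AS cells; a second model compared both induced miR-22 arrays with the remaining 4. NpBI-206AS cells, with 1 array per condition, had no test and added nothing to the residual spread of the first model. With 1 miR-22 array left out, that spread came only from the miR-22 group that kept both replicates. Counts of calls in those fits thus cannot be set against those of the full fit. Host genes were those whose span holds a member in the gene table, which gives no strand, so strand was not used as had been planned. The results of 1 host gene are not reported here.

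Members named are those called in any comparison, the 3 largest each way and the 5 brightest per class, members at least 2-fold apart in NpBI-206AS cells and the extremes of each locus; the text gives most of them, and others named were chosen after their values were seen. Alternatives were 3 scalings, a filter on dim rows, an intensity trend, the row per gene, the samples fitted, a replicate block and leaving out each array.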

Additional observations from a re-analysis of the deposited data

Results flagged for a closer look

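The 76 rows that name a small nucleolar or Cajal body RNA beside other genes lie outside the main measurement. They held 63 distinct sets of values, and 6 rows were called higher and 3 lower in induced miR-22 cells by limma, beside 1.59% and 2.01% of all rows. Counted by distinct values, 2 were called higher and 3 lower. Their largest rise, 2.65 on the log2 scale, was larger than that of any member. It was held by 5 rows of the same values, which read 10.75 and 10.3 in induced, 8.36 and 7.4 in untreated miR-22 cells, and 7.57 and 7.55 in untreated and induced NpBI-206AS cells (adjusted p = 0.027), and no gene was named from them.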

How the results depend on the processing

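No called value changed sign under any alternative that was run. For calls between induced and untreated miR-22 cells, the count of members was 15 and became 32 with a replicate block, 31 of 112 without the dimmest 50% of rows, and 0 without any of the 4 miR-22 arrays; the 14 to 17 calls under the other scalings, the trend, the row per gene and the 4-array fit held 12 to 15 of the main ones. Particle protein genes went from 3 called to 7 with the block, 6 without dim rows and 0 without any miR-22 array, and host genes from 2 to 5, 6 and 0. Over all rows, the deviations of induced and untreated replicate 1 from their own group means correlated at 0.196. Same-numbered replicates share only a number, so the block is no paired design. Calls against the other 4 arrays ranged from 12 to 74 as 1 array was left out. Counts in NpBI-206AS cells went from 1 to 0 under 4 alternatives.

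Medians near 0 changed sign or size easily. With each array centred on its median, those of all members, C/D and H/ACA became 0.04, 0.02 and 0.02, and H/ACA 0.0 with quantile normalization again; with 1 replicate left out, H/ACA ran from -0.09 to -0.02 and Cajal body RNAs from 0.17 to 0.35, and Cajal body RNAs rose to 1.12 without dim rows. Under quantile, loess and centring, RABGGTB gave -0.35, -0.32 and -0.20 and RPL3 0.04, 0.01 and 0.06. Leaving out 1 replicate gave SNORD115 -0.05 to 0.14, SNORD116 -0.00 to 0.23, SNORD113 and SNORD114 -0.32 to 0.06, NCL -0.15 to 0.33, RPL13A 0.44 to 0.75, RPL23A -0.57 to -0.23, and SNHG17 -0.42 to 0.13. The cause was not tested for any of these. Brightness limits the 27 members below the lower quartile on all arrays.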
